A study of Glycine max with 9 samples.

Results

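The levels of 7 soybean (Glycine max) loci in common use as reference genes were described in root hair cells of 3 ages. The loci were chosen by gene ID, not by their values, and make up 7 of the 56044 IDs in the deposited table. They are Glyma.20G141600, Glyma.12G020500, Glyma.12G051100, Glyma.03G137100, Glyma.18G290800, Glyma.02G276600 and Glyma.17G186600. The groups are titled 12h, 24h and 48h and hold root hair cells aged 276, 288 and 312 hours since sowing, with 3 libraries each. By these ages the 12h libraries also fall at another time of day than the 24h and 48h libraries. Age and time of day therefore cannot be told apart in comparisons with 12h. All plants were of the genotype given as willam 82, the cultivar of the soybean reference genome, were grown in a mist (aeroponic) system and received no treatment that the labels name. Separate plants or cultures are not stated for libraries of the same group. The p-values therefore measure only how these libraries differ, and that spread may be technical. In such bulk samples, fewer cells of a type and less RNA per cell cannot be told apart.

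A reference gene is one whose transcript is taken to stay at a constant level, so that the amount of another transcript can be given relative to it. The list was drawn up to hold genes for ubiquitin, actin, elongation factors, an F-box protein and others. Ubiquitin is the small protein that marks other proteins for degradation, and F-box proteins choose the targets that some ubiquitin ligases mark. Actin forms the filaments along which growing root hairs carry vesicles to their tip, and elongation factors bring aminoacyl-tRNAs to the ribosome or recharge the factor that does so. The files do not pair IDs with gene names and 0 of the 56044 IDs matched the reference table, so the loci are named here by ID alone. For the same reason the root hair identity of the samples was not checked against marker genes.

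Values are FPKM, fragments scaled to transcript length and to the mapped fragments of the library, so levels can be compared between genes. FPKM depend on the other transcripts in a library, and the libraries differed in this. The top 100 genes took up 53.6% of the FPKM sum in 12h replicate 2 and between 22.5% and 38.5% in the other 8 libraries. Median-of-ratios scaling divides each library by the median ratio of its genes to their geometric mean over all libraries. The factor it gave was 0.591 for 12h replicate 2, 0.787 for 24h replicate 3 and between 0.954 and 1.22 for the other 7. All 7 loci are therefore given as deposited and after this scaling.

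All 7 loci were above 4 FPKM in every library. Over the 9 libraries Glyma.17G186600 averaged 1308 FPKM as deposited, Glyma.20G141600 441 FPKM, Glyma.02G276600 170.2 FPKM and Glyma.18G290800 156 FPKM. Glyma.12G051100 averaged 73.7 FPKM, Glyma.12G020500 51.4 FPKM and Glyma.03G137100 17.1 FPKM. The lowest library of Glyma.17G186600 (871 FPKM) was above the highest of Glyma.20G141600 (777 FPKM). Every other pair of neighbours in this order overlapped over the 9 libraries.

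**Figure D1:**
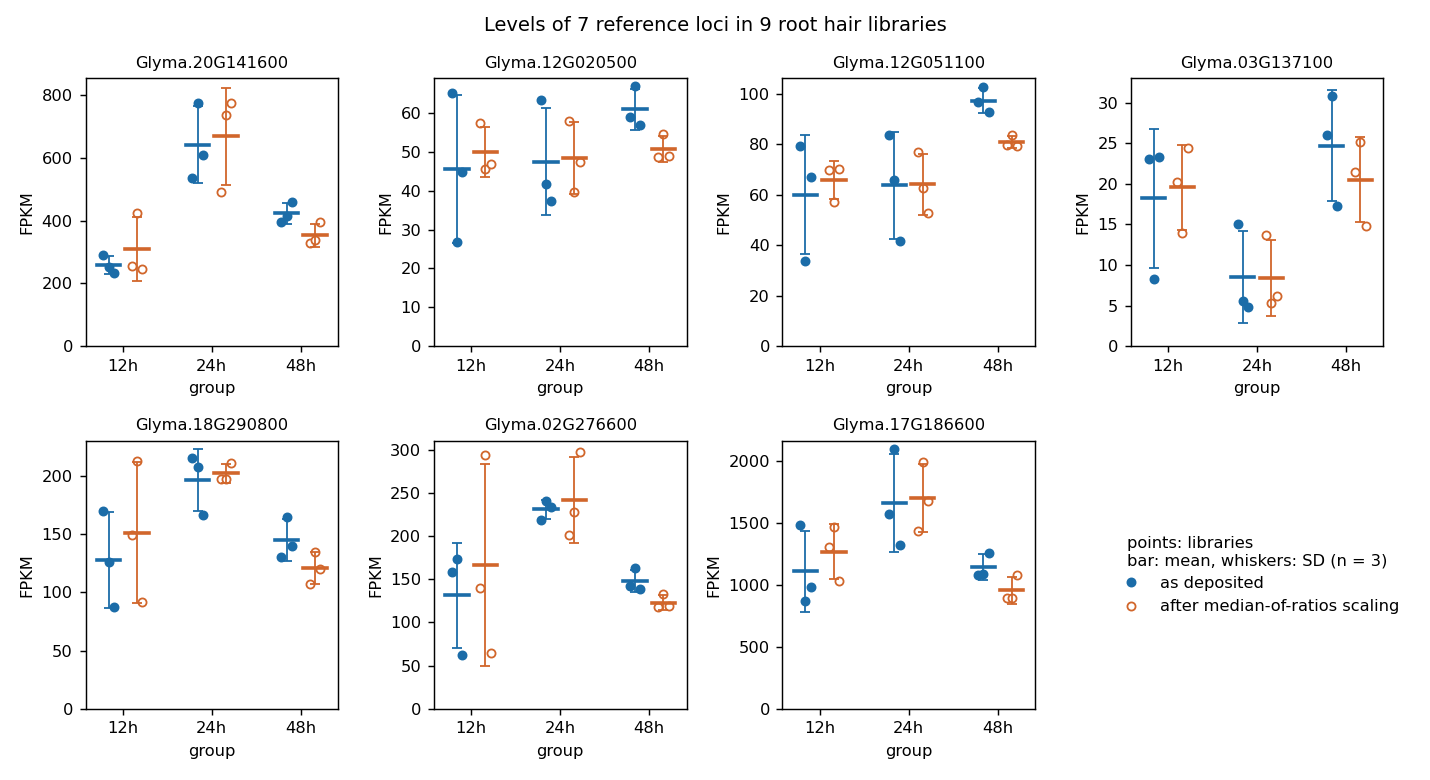
FPKM (vertical axes, from 0) of the 7 loci in the 12h, 24h and 48h groups (horizontal axes), as deposited (filled points) and after median-of-ratios scaling (open points). Points are libraries, bars are means and whiskers are SD (n = 3). Glyma.20G141600 is highest at 24h, Glyma.03G137100 is lowest there, and the scaled points of Glyma.12G020500 lie between 39.8 and 58.0 FPKM.

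Glyma.20G141600 had its highest level at 24h. As deposited it had 289, 252 and 235 FPKM at 12h, then 538, 777 and 611 FPKM at 24h, and 397, 414 and 459.9 FPKM at 48h. The 3 groups did not overlap, with the 24h libraries highest, the 48h libraries next and the 12h libraries lowest. After scaling the means were 309 ± 102 FPKM (12h), 669 ± 154 FPKM (24h) and 353 ± 36.0 FPKM (48h) (n = 3 each, ± SD). The 24h libraries stayed above both other groups, whereas 48h and 12h then overlapped, because 12h replicate 2 had 426 FPKM after scaling, above the 48h libraries. The log2 fold change of 24h versus 12h was 1.30 ± 0.32 (SE) as deposited, with a 95% interval from 0.59 upward to 2.0 and a limma adjusted p of 0.499. After scaling it was 1.13 ± 0.39 (SE), with a limma adjusted p of 0.270.

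Glyma.02G276600 was also highest at 24h, and its 12h libraries were far apart. As deposited it had 159, 174 and 62.1 FPKM at 12h, 219, 240.3 and 234 FPKM at 24h and 143, 163 and 138 FPKM at 48h. The 24h libraries were above all others as deposited. After scaling, 12h replicate 2 had 294 FPKM and 12h replicate 3 had 65.1 FPKM, a range that took in all 24h libraries but 24h replicate 3 (298 FPKM). The scaled 24h libraries (201, 228 and 298 FPKM) remained above the scaled 48h libraries (118, 133 and 119 FPKM).

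Glyma.18G290800 had the narrowest scaled values at 24h, with 197, 197 and 211 FPKM, against 150, 213 and 91.4 FPKM at 12h. Its scaled 48h libraries had 107, 135 and 120 FPKM, all below the 24h libraries. As deposited the means were 128 ± 41.3, 196 ± 26.4 and 145 ± 18 FPKM at 12h, 24h and 48h (n = 3 each, ± SD). The lowest 24h library (166 FPKM) then stood just above the highest 48h library (165 FPKM) and below 12h replicate 1 (169.8 FPKM).

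Glyma.17G186600, the most abundant of the 7, had 1482, 871 and 983 FPKM at 12h, 1573, 2099 and 1322 FPKM at 24h and 1083, 1092 and 1264 FPKM at 48h as deposited. The 24h libraries were above the 48h libraries, and overlapped with the 12h libraries. After scaling it had 1306, 1474 and 1030 FPKM at 12h, 1441, 1994 and 1680 FPKM at 24h and 894, 892 and 1084 FPKM at 48h. Its scaled 12h and 48h libraries overlapped only through 12h replicate 3.

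Glyma.03G137100, the least abundant, went the other way and was lowest at 24h. As deposited it had 23.0, 8.26 and 23.3 FPKM at 12h, 15.0, 5.55 and 4.84 FPKM at 24h and 26.1, 30.8 and 17.3 FPKM at 48h. The 24h libraries were below every 48h library, while 12h replicate 2 lay among the 24h values. After scaling 12h replicate 2 had 13.99 FPKM, just above the highest 24h library (13.7 FPKM), so the 24h group lay below both others. The log2 fold change of 48h versus 24h was 1.56 ± 0.48 (SE), with a 95% interval of 0.51 to 2.62 and a limma adjusted p of 0.248. The scaled means were 20.5 ± 5.24 FPKM at 48h and 19.6 ± 5.26 FPKM at 12h (n = 3 each, ± SD).

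Glyma.12G020500 differed widely between libraries as deposited and little after scaling. As deposited it had 65.2, 26.9 and 44.8 FPKM at 12h, 63.3, 41.9 and 37.4 FPKM at 24h and 59.0, 66.9 and 57.0 FPKM at 48h. Its lowest deposited values were in 12h replicate 2 and 24h replicate 3, the libraries with the lowest scaling factors. After scaling the means were 49.98 ± 6.46 FPKM for 12h, 48.4 ± 9.17 FPKM for 24h and 50.7 ± 3.41 FPKM for 48h (n = 3 each, ± SD), and all 3 groups overlapped. The 95% interval of the scaled log2 fold change of 48h versus 12h was -0.53 to 0.58, unadjusted. Differences up to about these sizes were thus not excluded in either direction.

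Glyma.12G051100 had its lowest deposited values in the same pair of libraries, 33.6 FPKM in 12h replicate 2 and 41.5 FPKM in 24h replicate 3. After scaling it had 70.0, 57.0 and 70.2 FPKM at 12h, 76.8, 62.7 and 52.7 FPKM at 24h and 79.8, 83.9 and 79.4 FPKM at 48h. The 48h libraries were thus above all 6 others, as they were as deposited (96.7, 103 and 92.6 FPKM). The scaled log2 fold change of 48h versus 12h was 0.30 ± 0.25 (SE), with a 95% interval of -0.27 to 0.87 and a limma adjusted p of 0.797.

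With all 9 libraries, 0 of the 7 loci passed limma's moderated test in any comparison of ages, where a call is a Benjamini-Hochberg adjusted p under 0.05 over all 31518 tested genes. Calls were rare over all genes. The share of tested genes called was 0.0381% for 24h versus 12h, 0% in the 48h versus 24h comparison, 0.117% when 48h was set beside 12h, and 0.0286% over the 3 ages by the F test. At an unadjusted p under 0.05 the loci that passed as deposited numbered 2, 1, 1 and 2 in that order, beside 3140, 5631, 3412 and 4277 of the 31518 tested genes. After scaling 2, 2, 0 and 2 loci passed, beside 4708, 5475, 2425 and 4712 genes. Again 0 loci were called at the adjusted threshold, against 0.0159%, 0%, 0.00952% and 0.00635% of all tested genes. Adjusted p-values of the 7 loci ran from 0.248 to 0.919 as deposited and from 0.252 to 0.986 after scaling (limma).

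Over all tested genes as deposited, 12h replicate 2 was more like the 24h libraries (Pearson's r of log2 values 0.913 to 0.927) than 12h replicates 1 and 3 (0.864 and 0.777). Likewise 12h replicate 1 was more like the 48h libraries (0.945 to 0.954) than 12h replicates 2 and 3 (0.864 and 0.883). The cause was not tested. The spread of the 12h libraries entered the tests of the loci, and 12h replicate 2 decided several of them. Without it, Glyma.20G141600 rose at 24h versus 12h (log2 fold change 1.28 as deposited and 1.39 scaled, limma adjusted p 0.0295 and 0.0300). Glyma.03G137100 rose at 48h versus 24h as deposited (1.56, limma adjusted p = 0.0396) and missed the threshold when scaled (1.28, limma adjusted p = 0.0604). In the scaled fit without that library Glyma.03G137100 fell at 24h versus 12h (-1.42, limma adjusted p = 0.0418) and Glyma.02G276600 rose (1.32, limma adjusted p = 0.0396). Leaving it out moved the background too, to 12.1% of tested genes called for 24h versus 12h as deposited and 15.9% scaled. For 48h versus 24h the share was 11.8% as deposited and 0% scaled, so no gene passed in that scaled fit. Fitted on the 6 libraries of 48h and 24h alone, as deposited, Glyma.03G137100 rose (1.56, limma adjusted p = 0.0350) and Glyma.02G276600 fell (-0.64, limma adjusted p = 0.0431), where 17.2% of tested genes were called. After scaling Glyma.18G290800 fell too in those 6 libraries (limma adjusted p = 0.0483), where 12.1% were called. Glyma.12G020500, Glyma.12G051100 and Glyma.17G186600 passed in 0 of 28 alternative fits of any contrast.

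**Figure D2:**
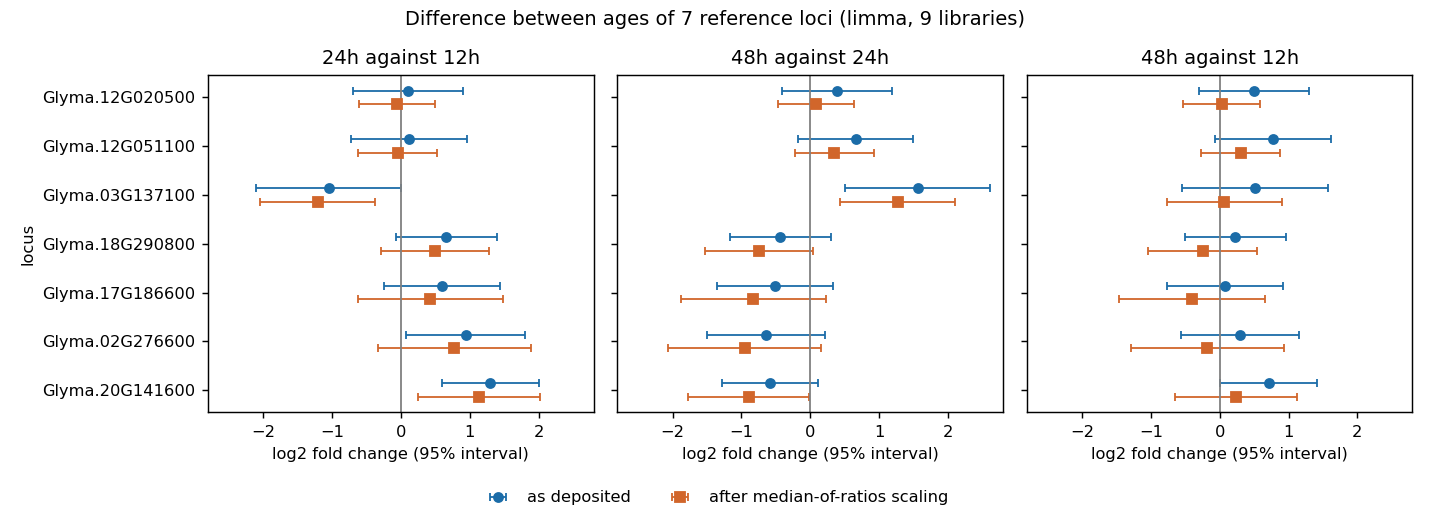
Log2 fold change (horizontal axes) of the 7 loci (vertical axis) in 3 comparisons of ages, as deposited (circles) and after median-of-ratios scaling (squares), from the limma fit of 9 libraries. Whiskers are 95% intervals, unadjusted. The intervals that lie clear of 0 under both kinds of values are those of Glyma.20G141600 for 24h versus 12h and Glyma.03G137100 for 48h versus 24h.

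Several pairs of groups did not overlap. As deposited, 2 of 7 loci were higher at 24h than in any 12h library, against 8.54% of all tested genes, and 0 were lower, against 1.73%. After scaling 1 was wholly higher (Glyma.20G141600, 5.75% of tested genes) and 1 wholly lower (Glyma.03G137100, 8.79%). For 48h versus 24h, 2 loci lay wholly higher (32.6% of tested genes) and 4 wholly lower (11.7%). Those lower at 48h were Glyma.20G141600, Glyma.18G290800, Glyma.02G276600 and Glyma.17G186600. Their fitted log2 fold changes, -0.58, -0.43, -0.64 and -0.51 as deposited, were -0.017, -0.036, -0.23 and 0.12 after quantile normalization, so the sign of the last turned. After median-of-ratios scaling 2 were still wholly higher and 4 wholly lower, against 22.5% and 22.7% of tested genes. For 48h versus 12h, 2 loci were wholly higher as deposited (19.8% of tested genes) and 0 wholly lower (2.23%). After scaling 1 was wholly higher (Glyma.12G051100, 8.07%) and 0 wholly lower (7.77%). In this last comparison the fitted log2 fold changes of all 7 loci were positive as deposited. So were those of 79.0% of all tested genes, with a median of 0.34. After scaling, with a median of -0.022 and 47.6% positive over all genes, 4 of 7 were positive. The fold changes of Glyma.18G290800, Glyma.02G276600 and Glyma.17G186600 turned negative (-0.25, -0.18 and -0.40). Without 12h replicate 2 the scaled values of Glyma.18G290800 and Glyma.02G276600 were positive again (0.038 and 0.36).

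Steadiness was described by the SD of log2(FPKM + 1) over the 9 libraries, beside the same SD over all tested genes. As deposited the lowest SDs were those of Glyma.17G186600 (0.39), Glyma.18G290800 (0.40) and Glyma.12G020500 (0.44), below the median of 0.51 over all tested genes. Glyma.12G051100 (0.55), Glyma.20G141600 (0.59), Glyma.02G276600 (0.59) and Glyma.03G137100 (0.91) were above it. The place of Glyma.02G276600 rested on 12h replicate 3, without which its SD was 0.32 as deposited, the next lowest of the 7 after Glyma.18G290800 (0.29). After scaling its SD without that library was 0.56. Which locus had the lowest deposited SD also moved with the library left out. It was Glyma.12G020500 without 12h replicate 2 (0.32), and Glyma.18G290800 without 12h replicate 3 (0.29) or 24h replicate 1 (0.38). With any other library left out it was Glyma.17G186600. A lower SD than that of Glyma.17G186600 was found for 24.4% of the 31518 tested genes, and a lower one than that of Glyma.03G137100 for 93.1%.

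Scaling changed the order. Glyma.12G020500 then had the lowest SD (0.17, 2.21% of tested genes lower) and Glyma.12G051100 the next (0.23, 8.30% lower). Glyma.17G186600 (0.41, 42.5% lower) and Glyma.18G290800 (0.46, 51.6% lower) stood near the median of 0.45. Glyma.20G141600 (0.59), Glyma.02G276600 (0.71) and Glyma.03G137100 (0.75) had higher SDs than 71.7%, 81.9% and 84.5% of the tested genes. In FPKM, the highest scaled library exceeded the lowest 1.46-fold for Glyma.12G020500, 1.59-fold for Glyma.12G051100 and 4.77-fold for Glyma.03G137100. Glyma.12G020500 had the lowest scaled SD of the 7 with any 1 of the 9 libraries left out, and Glyma.12G051100 the next lowest. Both places together were seen under median-of-ratios scaling alone, while Glyma.12G020500 was also lowest as deposited without 12h replicate 2 (0.32). Under quantile normalization, which gives all libraries the same set of values, Glyma.18G290800 was steadiest (0.34), Glyma.12G020500 was at rank 2 (0.41) and Glyma.12G051100 at rank 5 (0.56), with Glyma.03G137100 still last (0.79). Among the 11101 tested genes that averaged at least 10 FPKM, 228 had a lower scaled SD than Glyma.12G020500.

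**Figure D3:**
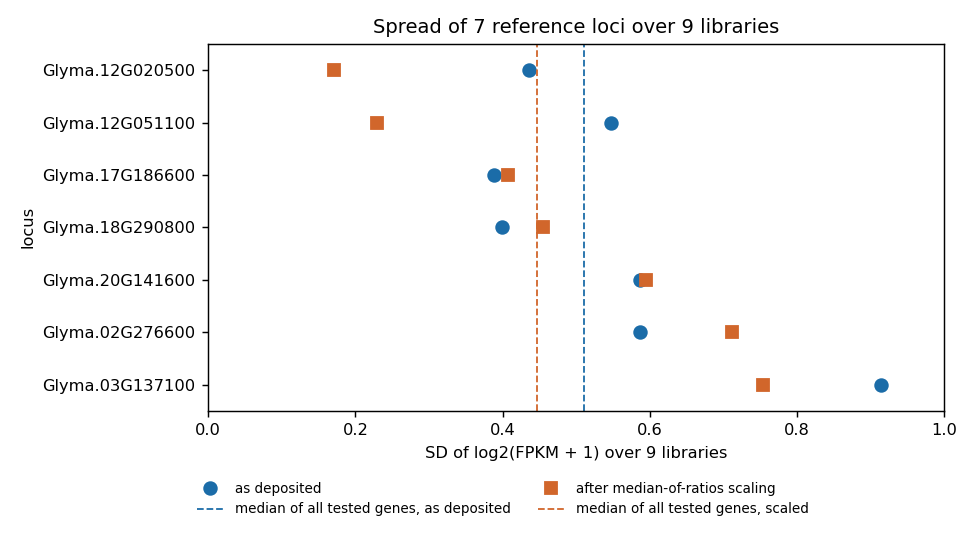
SD of log2(FPKM + 1) over the 9 libraries (horizontal axis) for the 7 loci (vertical axis), as deposited (circles) and after median-of-ratios scaling (squares). Dashed lines are the medians over all tested genes, 0.51 as deposited and 0.45 scaled. Scaling takes Glyma.12G020500 to 0.17 and Glyma.12G051100 to 0.23, and leaves Glyma.20G141600 at 0.59.

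The SD over all libraries joins the differences between ages and those within an age. For Glyma.20G141600 as deposited the SD within ages was 0.19 and that of the 3 age means 0.65, so its spread lay mainly between the ages. After scaling these were 0.34 and 0.60. For Glyma.12G020500 the scaled SD within ages was 0.19, and that of the age means 0.041. For Glyma.02G276600 the scaled SD within ages (0.65) was above that of the age means (0.51), with a coefficient of variation of 70.2% at 12h, 20.6% at 24h and 6.86% at 48h.

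The ratio of 2 loci within a library needs no library scaling. The SDs here were taken on log2(FPKM + 1), which keeps some dependence on library scale, whereas the ratios quoted are of FPKM itself. Over the 21 pairs the SD of the log2 ratio ran from 0.20 to 1.35. It was lowest for Glyma.12G020500 and Glyma.12G051100 (0.20), whose ratio averaged 0.763 ± 0.0820 (12h), 0.764 ± 0.134 (24h) and 0.626 ± 0.0230 (48h) (n = 3 each, ± SD). The next lowest was that of Glyma.18G290800 and Glyma.17G186600 (0.25), with ratios of 0.116 ± 0.0278, 0.121 ± 0.0195 and 0.127 ± 0.0212 at 12h, 24h and 48h (n = 3 each, ± SD), which overlapped between all groups. The 6 pairs among Glyma.18G290800, Glyma.17G186600, Glyma.02G276600 and Glyma.20G141600, the loci highest at 24h, had SDs of 0.25 to 0.48. Pairs across these and the first pair had SDs of 0.50 to 0.88.

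Ratios to Glyma.03G137100 were the least steady. Glyma.20G141600 exceeded it 12.6-, 30.5- and 10.1-fold in the 12h libraries, 35.8-, 140.1- and 126-fold in the 24h libraries and 15.2-, 13.4- and 26.6-fold in the 48h libraries. The 24h ratios were above those of every other library. The SDs of Glyma.03G137100 with the 4 loci highest at 24h were 1.12 to 1.35, and those with Glyma.12G020500 and Glyma.12G051100 were 0.66 and 0.61.

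Ranking reference genes by such ratios is a common practice (the geNorm procedure), in which the locus with the highest mean SD to the others is left out step by step. This left out Glyma.03G137100 first (mean SD 1.03), then Glyma.12G051100 (0.61) and Glyma.12G020500 (0.61), then Glyma.02G276600 (0.40) and Glyma.20G141600 (0.38). With nothing added to the FPKM the mean SD of Glyma.03G137100 to all others was 1.11. Glyma.18G290800 and Glyma.17G186600 remained. The procedure thus left out early the pair with the lowest spread after median-of-ratios scaling. It kept a pair that was wholly lower in the 48h than in the 24h libraries, as deposited and after that scaling. Of the pair left out, Glyma.12G051100 was wholly higher at 48h than at 24h under both kinds of values, and Glyma.12G020500 overlapped. Before any locus was left out, the mean SDs of Glyma.12G020500 and Glyma.17G186600 were close (0.553 and 0.555).

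**Figure D4:**
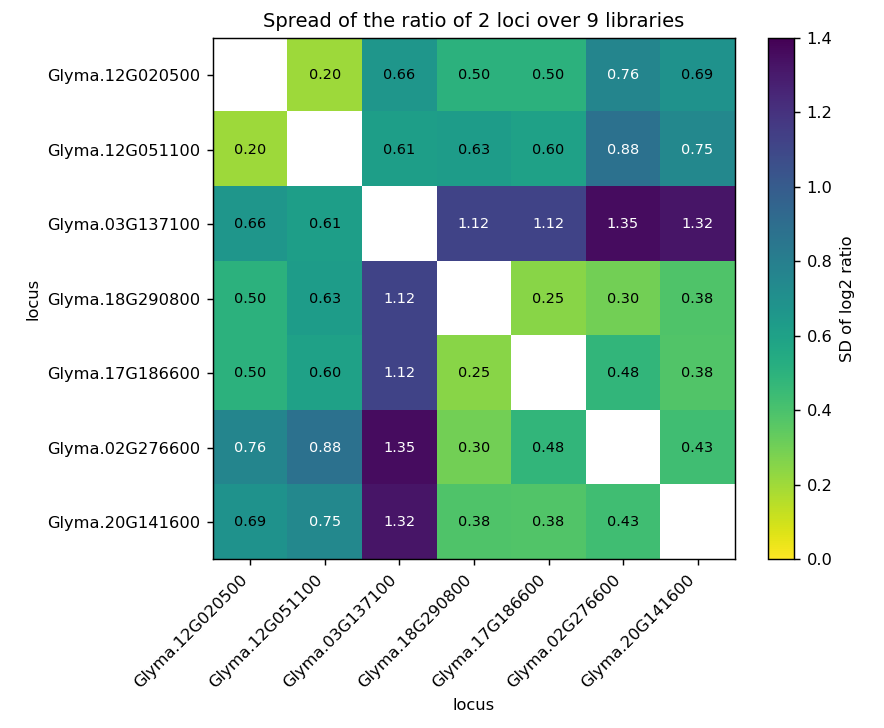
SD over the 9 libraries of the log2 ratio of 2 loci (colour and printed value), with the 7 loci on both axes. The 4 loci highest at 24h form a block of values up to 0.48 at the lower right, and Glyma.12G020500 with Glyma.12G051100 has 0.20.

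When libraries are scaled to 1 locus, all other genes are read relative to it. The all-gene medians then largely restate, with the sign turned, the fold changes of that locus after median-of-ratios scaling. They are therefore no separate support for its steadiness. Each library was divided by the level of 1 locus and all 31518 tested genes were fitted again. With Glyma.12G020500 as the reference the all-gene median of the log2 fold change was 0.023 for 24h versus 12h, -0.083 for 48h versus 24h and -0.044 for 48h versus 12h. With Glyma.20G141600 it was -0.90, 0.65 and -0.22 in that order. With Glyma.03G137100 it was 1.05, -1.13 and -0.073, so 93.1% of tested genes had a positive fold change for 24h versus 12h, against 3.06% with Glyma.20G141600. The other 4 loci gave medians of -0.65 to 0.018 for 24h versus 12h and -0.29 to 0.71 for 48h versus 24h. The geometric mean of all 7 gave -0.18, 0.16 and -0.0052.

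Calls moved with it. Scaled to Glyma.20G141600, 32 genes rose and 10425 fell at 24h versus 12h (limma, adjusted p under 0.05), against 10 that rose and 2 that fell as deposited. The count moved widely with the libraries in the fit. Without 12h replicate 1 or 3, 24h replicate 2 or 3, or 48h replicate 1 or 2 the count was between 0 and 125. Leaving out 48h replicate 3 gave 4241, leaving out 12h replicate 2 gave 19866 and leaving out 24h replicate 1 gave 11040.

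Scaled to Glyma.17G186600, 6141 genes rose and 6 fell at 48h versus 24h (limma, adjusted p under 0.05), against 0 as deposited, where 5631 had an unadjusted p under 0.05. That count of 6147 was between 0 and 3 without 12h replicate 1, 24h replicate 2 or 3 or any of the 48h libraries. It was 11727 without 12h replicate 2, 11831 when 12h replicate 3 was left out, and 6752 without 24h replicate 1. The other 5 loci gave 1 to 35 calls for 24h versus 12h. For the 48h versus 24h comparison they gave 0 (4575 to 17762 genes at an unadjusted p under 0.05), and between 48h and 12h they gave 1 to 12.

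**Figure D5:**
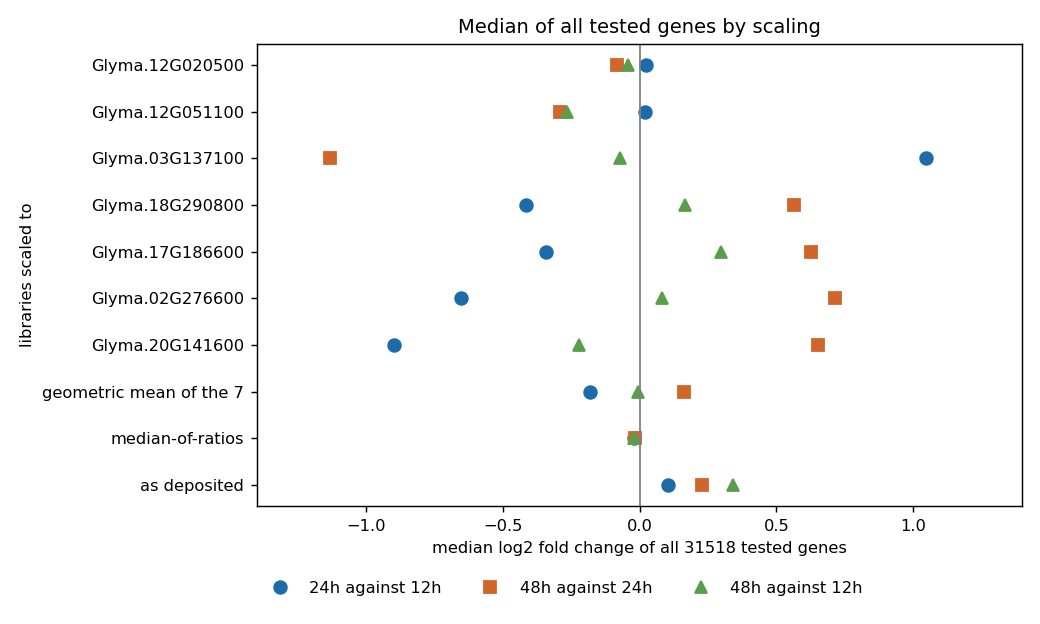
Median over all tested genes of the log2 fold change (horizontal axis) in 3 comparisons of ages, after scaling each library to the locus or method on the vertical axis. With Glyma.12G020500 the 3 medians lie between -0.083 and 0.023, and with Glyma.03G137100 they reach -1.13 and 1.05. For a locus, the medians largely mirror its own fold changes after median-of-ratios scaling, with the sign turned.

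A further 11 IDs, all tested, were taken from memory of published soybean reference loci and their relatives. They were checked against no annotation, so what these genes encode is uncertain. For 24h versus 12h all 11 had positive log2 fold changes, with a median of 0.58 as deposited and 0.42 after scaling, against 0.59 and 0.43 for the 7 loci and 0.10 and -0.021 for all tested genes. Of all tested genes 56.9% were positive as deposited and 48.5% after scaling. For 48h versus 24h the scaled values of 10 of the 11 were negative, with a median of -0.68, against -0.74 for the 7 loci and -0.015 for all tested genes. In that comparison 49.0% of all tested genes were positive. With all 9 libraries 0 of 11 were called in any comparison (limma). At an unadjusted p under 0.05, 5 passed at 24h versus 12h as deposited (3140 of all tested genes), 0 between 48h and 24h (5631) and 1 between 48h and 12h (3412). After scaling 1, 2 and 0 passed, beside 4708, 5475 and 2425 of all tested genes. Glyma.20G130700 had the lowest scaled SD among them (0.16), with 19.8 to 29.7 scaled FPKM over the 9 libraries. Glyma.12G024700 had the highest (1.10), with 65.5 scaled FPKM in 12h replicate 3 and 917 in 12h replicate 2.

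Among the 11094 other tested genes that averaged at least 10 FPKM, the one most like each locus was found by Pearson's r of scaled log2 values over the 9 libraries, as a description. For Glyma.20G141600 it was Glyma.06G203200 (r = 0.976), with scaled means of 121, 179 and 129 FPKM at 12h, 24h and 48h. For Glyma.03G137100 it was Glyma.18G132500 (r = 0.988), with 19.5, 9.47 and 19.4 FPKM. Glyma.02G276600 was nearest to Glyma.10G002600 (r = 0.990), and 209 genes reached an r of 0.95 with it. Glyma.18G290800 was nearest to Glyma.03G039800 (r = 0.983), Glyma.17G186600 to Glyma.06G095300 (r = 0.973) and Glyma.12G051100 to Glyma.09G279500 (r = 0.972). For Glyma.12G020500 the highest r was 0.947, with Glyma.07G186100, and 0 genes reached 0.95.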

How the data were processed

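Messenger RNA of 9 root hair libraries was sequenced from TruSeq libraries, per the labels' protocols. The authors deposited 1 table of FPKM values for 56044 gene IDs. Per the submitters' processing notes, the tools were TopHat2 2.1.0 and Cufflinks 2.2.1. The genome build and gene models stand as not given in the sources used here. The name of the table points to tissue culture. The labels, which give root hair cells throughout, were followed. Depth is unknown: over 36 pairs of libraries only 1.44% to 5.74% of genes under 0.2 FPKM lay within 1% of the most common ratio, so whole reads were not recovered. Separate values are uncertain for genes with near-identical copies, which share reads.

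The 31518 genes that reached 1 FPKM in 3 or more libraries were tested with limma 3.58.1 in R 4.3.3, on log2(FPKM + 1), with an intensity trend and a term per group in 1 fit of 9 libraries. Fold changes on this scale understate the change of genes with low values. Scaling factors came from the 34672 genes above 0 in all libraries. To scale to a locus, each library was divided by the level of that locus relative to its geometric mean. The fit was tested on simulated data. The text names the 7 loci, those of the second list that it singles out by the lowest and highest spread, chosen after their values were seen, and the gene most like each locus. The loci, lists and tests were chosen with earlier results of these data known. Alternatives were pseudocounts, filters, quantile normalization, robust moderation, a replicate block, fewer libraries and scaling. Scaled fits without each library other than 12h replicate 2, and scaling to the mean of several loci, were added after seeing the data.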

Additional observations from a re-analysis of the deposited data

How the results depend on the processing

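Depth is unknown, so its part was not tested. Of the 7 loci, 0 to 2 were called by the F test over 3 ages with any 1 library left out. In the same repeats 0 to 1 were called between 24h and 12h, 0 to 1 between 48h and 24h and 0 between 48h and 12h, and each call came without 12h replicate 2. Without it 9.91% of all tested genes were called by the F test, 12.1% between 24h and 12h and 11.8% between 48h and 24h. With scaling and without that library, 1 was called by the F test (6.69% of tested genes) and 3 between 24h and 12h (15.9%). Fits of 6 libraries called 2 between 48h and 24h (Glyma.03G137100 and Glyma.02G276600, with 17.2% of tested genes), and 3 with scaling (Glyma.18G290800 too, with 12.1%). Fits with other pseudocounts, filters, quantile normalization, robust moderation or a replicate block gave 0 called loci in all 4 comparisons.

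Replicate numbers were not treated as pairs. Same-numbered libraries had correlations of -0.078 to 0.35, and 2 of 9 libraries correlated best with their own number. With the replicate block 0 loci were called. Over all genes it called 81 by the F test (9 without the block), 21 between 24h and 12h (12 without), 4 between 48h and 24h (0 without) and 102 between 48h and 12h (37 without).

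With 1 library left out, scaling to Glyma.20G141600 gave 0 to 19866 calls between 24h and 12h, and scaling to Glyma.17G186600 gave 0 to 11831 between 48h and 24h. Log2 fold changes that turned sign were not called. Between 24h and 12h Glyma.12G020500 (0.11 as deposited) had -0.053 after scaling, -0.11 after quantile normalization, -0.027 with scaling in 6 libraries, -0.11 with scaling and without 12h replicate 2, and -0.22 to 0.40 without 1 library (-0.19 to 0.066 scaled). Glyma.12G051100 (0.12) had -0.046, -0.13, -0.020, -0.14 and -0.25 to 0.39 (-0.18 to 0.088 scaled). Between 48h and 12h, scaling in 9 and in 6 libraries gave -0.25 and -0.25 for Glyma.18G290800, -0.18 and -0.18 for Glyma.02G276600 and -0.40 and -0.40 for Glyma.17G186600. With scaling and without 12h replicate 2 Glyma.17G186600 had -0.28. Without 1 library the 3 had -0.019 to 0.46, -0.17 to 0.56 and -0.078 to 0.31 as deposited. Scaled, the first had -0.56 to 0.038 and the next -0.71 to 0.36. Glyma.03G137100 and Glyma.12G020500, scaled and without 1 library, had -0.15 to 0.27 and -0.034 to 0.13 between 48h and 12h, with the lowest value of both without 12h replicate 2. Between 48h and 24h Glyma.12G020500 had -0.045 to 0.22 in those fits, and Glyma.17G186600 had 0.12 after quantile normalization and was then at rank 6 of 7 in steadiness. The cause was not tested.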
